A study of Sus scrofa with 6 samples.

Results

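The genes described here are the 267 protein-coding genes of the pig (*Sus scrofa*) whose expression was fully separated between ovaries of Large White and Meishan pigs and was higher in Large White. They were chosen by their own values. In each of them the lowest of the 3 Large White samples had an RPKM (reads relative to the length of the feature and to all mapped reads) of at least 0.5, and this value was at least 1.5 times the RPKM of the highest of the 3 Meishan samples. The rule took 267 of the 21594 protein-coding genes listed (1.24%), after 13 mitochondrial genes were left out. The same rule with the breeds exchanged took 181 genes (0.838%). Because the values that chose the genes are the values described, the difference between the breeds in these genes is given as a description and with no test. Every selected gene is separated by the rule itself, so nothing is read from separation where it is stated for single genes.

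Total RNA of 6 ovary samples was sequenced, 3 of the Meishan, a Chinese breed, and 3 of the Large White, a European breed, all labelled ovary at 49 days post coitus. No genetic change, treatment or agent is given in the labels for either group. The labels do not say whether the ovary was that of a fetus or of the pregnant female. Nor do they say whether the 3 samples of a breed came from separate animals or litters, or whether tissue was pooled. The p-values given below set the breed difference against the spread between these samples, moderated over all tested features. Whether that spread is the one between animals is not known. Breed is the only labelled difference between the groups.

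The ovary holds germ cells, the somatic follicle cells that surround them, stroma, vessels and steroid-producing cells. Steroid-producing cells turn cholesterol, taken up from lipoproteins or made in the cell through the mevalonate pathway, into pregnenolone by CYP11A1, the enzyme that opens steroid synthesis. Cells that make much steroid are known for abundant cholesterol synthesis and transport proteins, mitochondria and enzymes of redox defence, and resident macrophages lie beside them.

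The depth recovered from the values lay between 35185781 and 39033204 mapped reads per sample. Between 36.6% (Meishan replicate 3) and 46.3% (Large White replicate 2) of these reads fell on the listed features. Levels of the markers were checked before the genes were described. CYP11A1 was abundant, at 1299, 1416 and 506 RPKM in the Meishan samples and 1882, 1785 and 1655 RPKM in the Large White samples. Several genes that mark germ cells were low, and DDX4, a helicase that marks germ cells, had 0, 1.58 and 0.466 RPKM in the Meishan samples and 0.318, 0.374 and 0.0375 RPKM in the Large White samples. FIGLA, a transcription factor of the oocyte, was listed at 0 in all 6 samples, but other oocyte and meiosis genes were present. TAF4B and GDF9, of the oocyte, had 2.82 to 4.77 RPKM and 1.35 to 2.32 RPKM. MEIOB, of meiosis, had 3.88 to 6.34 RPKM, and MSH4, also of meiosis, had at least 9.40 RPKM in every sample. Of the listed genes, 4 of 11 for germ cells, 4 of 11 for the oocyte and 8 of 16 for meiosis reached 0.5 RPKM in 3 or more samples. GATA4 and WT1, transcription factors of the gonad's somatic cells, were present in all samples, with 9.24 to 30.4 RPKM. LGR5, IRX3 and NR0B1, of the same cells, had at most 0.637 RPKM. PAX2 and UMOD, markers of the mesonephros and kidney, were at or near 0, but PAX8, another such marker, had 1.74 to 4.76 RPKM. By the same measure 9 of 12 listed genes of the gonad's somatic cells and 3 of 16 of the mesonephros and kidney were present. Meishan replicate 3 stood apart from the other 5 samples. It held 491 RPKM of INHA, a subunit of inhibin, against 2.05 to 4.93 RPKM in the others, and 235 RPKM of INSL3, a peptide hormone of steroid-producing cells, against 1.04 to 15.6 RPKM. Its level of CYP11A1 was the lowest. Its upper quartile of protein-coding values above 0 was also the lowest, at 8.44 RPKM against 9.47 to 10.3 RPKM. It was the lowest Meishan sample in 127 of the 253 selected genes without ties among the Meishan samples (50.2%), against 44.4% of the 12302 such genes with a Large White minimum of 0.5 RPKM, and the highest in 65 (25.7% against 35.8%). Without Meishan replicate 3 the rule took 426 genes; leaving out a sample can only add genes to those it takes.

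**Figure D1:**
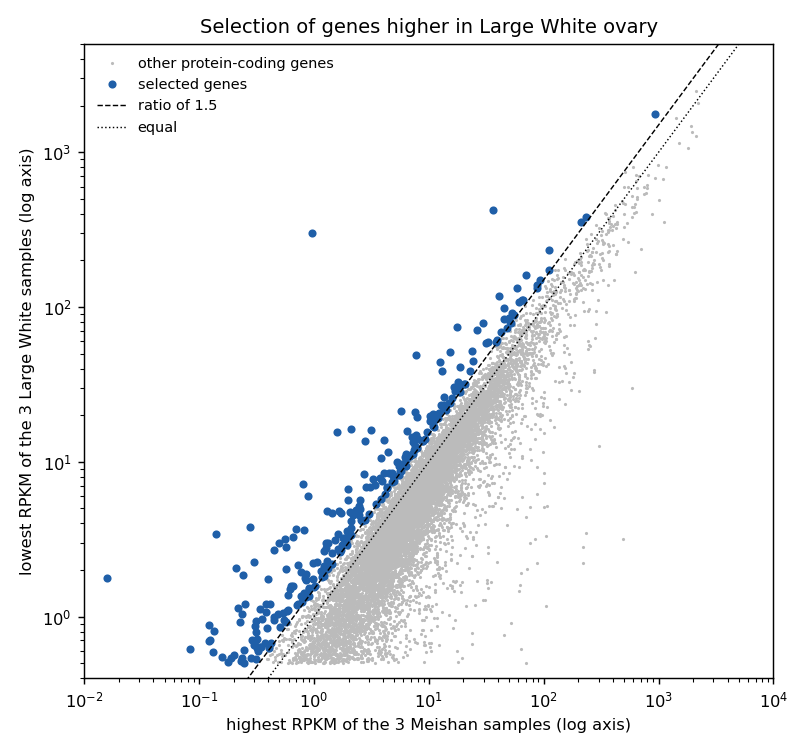
Each point is a protein-coding gene with a lowest Large White RPKM of at least 0.5, drawn at the highest RPKM of the 3 Meishan samples (x, log axis) and the lowest RPKM of the 3 Large White samples (y, log axis). The 265 selected genes with a Meishan value above 0 lie on or above the dashed line, and 2 with all Meishan samples at 0 are not drawn. SULT1C3, at 0.957 and 298 RPKM, lies farthest above the line of the genes drawn.

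The selected genes ranged from low to high expression above the minimum that the rule sets. Their mean RPKM in Large White was under 1 in 19 genes, between 1 and 10 in 142, between 10 and 100 in 88 and at least 100 in 18. The last class held 6.74% of the selected genes, against 2.44% of the 12320 protein-coding genes that met the minimum in Large White. The class between 1 and 10 held 53.2%, against 63.3%. In most of the selected genes the gap was modest. The lowest Large White sample was 1.5 to 2 times the highest Meishan sample in 151 genes, 2 to 5 times in 90 and at least 5 times in 24, and Meishan was listed at 0 in the other two. The median difference (Large White minus Meishan) on the log2(RPKM + 1) scale was 1.13, with a range of 0.41 to 7.98, and 166 genes differed by at least 1. That scale understates the change of genes at low levels. The median coefficient of variation among the 3 samples was 37.1% in Meishan, against 24.4% in the 12320 genes, while in Large White it was close to the 14.8% of those genes. The rule used these values, and 30 of the selected genes had a Meishan sample at 0, so nothing is read from this difference. In a bulk sample, fewer cells of a type and less RNA per cell cannot be told apart. The gene length recovered from the values had a median of 1533 bases, against 1978.5 bases in the 12320 genes. In limma's test over all features, with Benjamini-Hochberg adjustment, 69 of the 267 genes had an adjusted p under 0.05 and a difference of at least 1. These were also all of the 69 protein-coding genes called higher in Large White among 13375 tested (0.516%), and since the rule used the same contrast nothing is read from this count.

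The widest gap was that of SULT1C3 (ENSSSCG00000028691), a cytosolic sulfotransferase that attaches sulfate to small molecules. It had 0.0119, 0.292 and 0.957 RPKM in Meishan and 320.2, 423 and 298 RPKM in Large White. These levels rested on 1, 25 and 86 reads in the Meishan samples and 25936, 36496 and 25613 reads in the Large White samples. The breeds were far apart, with a ratio of 312 between the lowest Large White and the highest Meishan sample and a log2 difference of 7.98 ± 0.27 (SE, n = 3 and 3). DHRS4 (ENSSSCG00000002013), a short-chain dehydrogenase that reduces retinal and other carbonyl compounds, was abundant in both breeds, with 32.03, 24.5 and 36.4 RPKM in the Meishan samples and 571, 551 and 423 RPKM in the Large White samples. The nearest samples were 11.6-fold apart, and the log2 difference was 4.02 ± 0.25 (SE). Both genes have close relatives, so their levels are uncertain where the authors' counting could not separate near-identical copies.

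**Figure D2:**
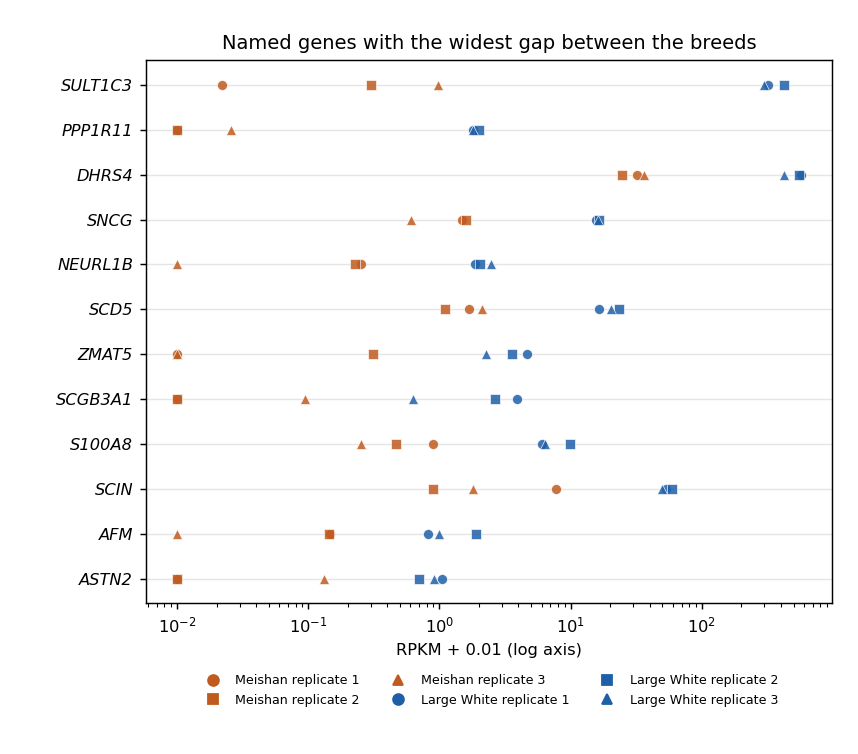
RPKM + 0.01 (log axis) in each sample for the 12 genes with a symbol and the widest gap, in order of the gap. In every gene the 3 Large White samples (blue) lie to the right of the 3 Meishan samples (orange), and points at 0.01 are samples listed at 0.

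Several genes were listed at or close to 0 in Meishan. Reads of both breeds were mapped to the same pig genome assembly, and whether Meishan reads were lost in mapping was not tested. PPP1R11 (ENSSSCG00000024259), an inhibitory subunit of protein phosphatase 1, had 0, 0 and 0.0159 RPKM in Meishan and 1.80, 1.99 and 1.78 RPKM in Large White, and its Meishan value came from 1 read in replicate 3. ZMAT5 (ENSSSCG00000024279), a zinc finger protein of the minor spliceosome, had 0, 0.300 and 0 RPKM in Meishan and 4.60, 3.54 and 2.25 RPKM in Large White. NEURL1B (ENSSSCG00000016992), a ubiquitin ligase for Notch ligands, had 0.241, 0.218 and 0 RPKM in the Meishan samples and 1.87, 2.02 and 2.47 RPKM in the Large White samples. These genes were low in Large White as well, between 1.78 and 4.60 RPKM, but each was covered there by 60 to 136 reads per sample. SCGB3A1 (ENSSSCG00000014008), a small secreted protein, had 0, 0 and 0.0837 RPKM in Meishan and 3.90, 2.62 and 0.613 RPKM in Large White, of which the lowest Large White value rested on 7 reads, so its gap is known with little precision. ASTN2 (ENSSSCG00000005502), a membrane protein of migrating neurons, had 0, 0 and 0.121 RPKM in Meishan and 1.03, 0.692 and 0.906 RPKM in Large White. AFM (ENSSSCG00000008950), a plasma carrier of vitamin E, had 0.135, 0.133 and 0 RPKM in the Meishan samples and 0.801, 1.90 and 0.981 RPKM in the Large White samples. In SCGB3A1 and AFM the Large White samples were spread over more than 2-fold, while no Meishan sample reached the lowest of them.

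Other genes were expressed in both breeds with a wide gap. SNCG (ENSSSCG00000026850), gamma-synuclein, had 1.46, 1.58 and 0.597 RPKM in Meishan and 15.5, 16.3 and 16.1 RPKM in Large White. Its Large White samples were close together and lay 9.82-fold above the highest Meishan sample. SCIN (ENSSSCG00000015353), an actin-severing protein of the gelsolin family, had 7.69, 0.890 and 1.78 RPKM in Meishan and 53.4, 59.2 and 49.3 RPKM in Large White. Meishan replicate 1 was well above the other Meishan samples and still 6.40-fold below the lowest Large White sample. S100A8 (ENSSSCG00000006590), a subunit of the calcium-binding protein calprotectin of myeloid cells, had 0.880, 0.458 and 0.243 RPKM in the Meishan samples and 6.03, 9.91 and 6.40 RPKM in the Large White samples. Of the genes without a symbol, ENSSSCG00000026162 was listed at 0 in all Meishan samples and had 1.08, 0.959 and 1.14 RPKM in the Large White samples. Its Large White samples held 54 to 64 reads each.

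The 8 most abundant of the genes with a symbol came from several compartments of the cell. After DHRS4, the highest mean was that of RPS4X (ENSSSCG00000012405), a protein of the small ribosomal subunit, with 231, 181 and 215 RPKM in Meishan and 500.4, 490.1 and 383 RPKM in Large White. MSMO1 (ENSSSCG00000008857), a sterol oxidase of cholesterol synthesis described with its pathway below, and SULT1C3 were also among them. PRXL2A (ENSSSCG00000010340), a peroxiredoxin-like redox protein, had 66.9, 70.8 and 35.3 RPKM in Meishan and 201, 232 and 160.2 RPKM in Large White. CTSH (ENSSSCG00000001770), a lysosomal cysteine protease, had 112, 86.1 and 57.3 RPKM in the Meishan samples and 175, 213 and 177 RPKM in the Large White samples. In both, Meishan replicate 3 was the lowest sample and the other two Meishan samples still lay below all Large White samples. HSPE1 (ENSSSCG00000016078), the co-chaperone of mitochondrial HSP60, had 82.5, 85.4 and 87.2 RPKM in Meishan and 199.5, 193 and 132 RPKM in Large White. Its Meishan samples were nearly equal, and Large White replicate 3 was the lowest of its breed. NPC2 (ENSSSCG00000002366), which binds cholesterol in the lysosome and passes it on for export, had 84.3, 93.3 and 44.5 RPKM in Meishan and 167, 177 and 148 RPKM in Large White. RPS4X and HSPE1 have processed copies in mammalian genomes, so their levels are uncertain where counting could not separate the copies.

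After the values were seen, 102 of the 161 genes with a symbol were sorted into 9 roles by their textbook function. Limma called 24 of the 102, beside 69 of all 267 selected genes. How many of all protein-coding genes have each role was not counted. Nothing is read from the size of a role or from the count called in it. The lipid and sterol group had 19 genes, of which 6 were called by limma, with a median log2 difference of 1.24. SCD5 (ENSSSCG00000009245), a desaturase that makes monounsaturated fatty acids, had 1.66, 1.10 and 2.12 RPKM in the Meishan samples and 16.3, 23.3 and 20.4 RPKM in the Large White samples. AACS, which turns acetoacetate into an activated precursor of sterols and fatty acids, had 15.3, 8.27 and 4.85 RPKM in Meishan and 52.8, 65.9 and 51.4 RPKM in Large White. STARD6, a member of the StAR-related family of lipid-binding proteins, had 3.13, 0.669 and 1.27 RPKM in Meishan and 20.5, 18.6 and 16.00 RPKM in Large White. The Large White samples were at least 3.36-fold above the highest Meishan sample in these 3 genes. The group also held FADS6, a fatty acid desaturase, CROT, which moves medium-chain acyl groups out of peroxisomes, ETFA, which passes electrons from fatty acid oxidation to the respiratory chain, GRAMD1B and GRAMD1C, which carry cholesterol from the plasma membrane, and LIPC, hepatic lipase. Meishan replicate 3 was the lowest Meishan sample in 15 of the 19 genes and the highest in 1, so in most of them the gap was set by the other two Meishan samples.

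**Figure D3:**
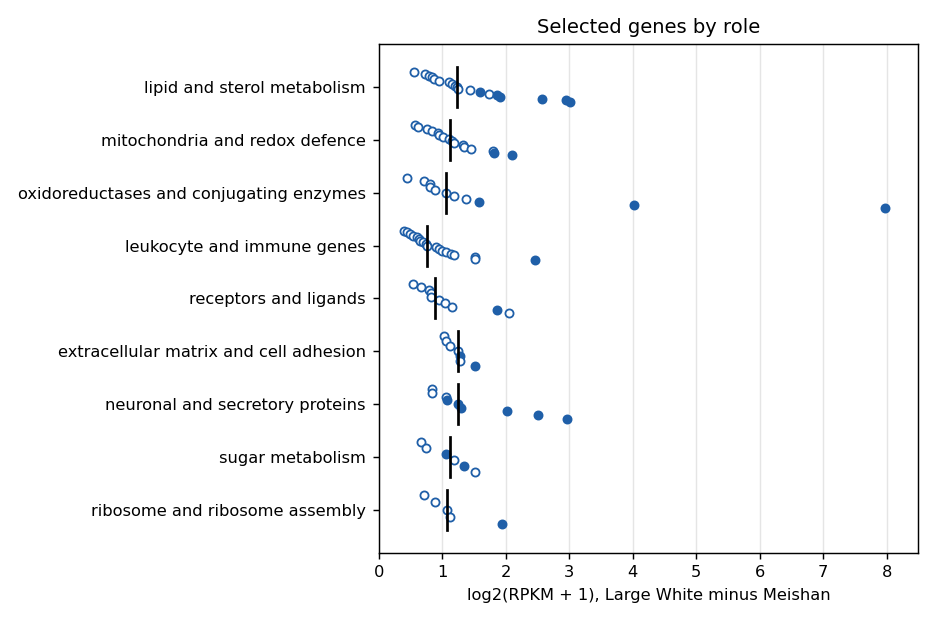
Difference in log2(RPKM + 1), Large White minus Meishan, for the 102 selected genes sorted by role. Each point is a gene, filled where limma called it, and the black bar is the median of the role. Medians lie between 0.77 for leukocyte and immune genes and 1.25 for neuronal and secretory proteins, and SULT1C3 stands alone at 7.98.

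Mitochondrial proteins and redox enzymes made up 16 of the genes, with 2 called and a median log2 difference of 1.13. TXN2 (ENSSSCG00000000144), the mitochondrial thioredoxin, had 26.3, 20.1 and 15.1 RPKM in the Meishan samples and 86.9, 113 and 71.2 RPKM in the Large White samples. PRDX3, the mitochondrial peroxiredoxin that TXN2 reduces, had 61.2, 49.7 and 35.6 RPKM in Meishan and 142, 151 and 108 RPKM in Large White. In both the groups did not overlap, as the rule requires, and Meishan replicate 3 was the lowest sample. PRDX5, another peroxiredoxin, NDUFB5, a subunit of respiratory complex I, and PHB1, prohibitin of the inner membrane, belonged to the same group. So did 4 mitochondrial ribosomal proteins, MRPL30, MRPL39, MRPL50 and MRPS27, of 45 tested. This family was tallied because selected genes were seen in it, and they are included in its counts, which are therefore a description. None of the 45 was called by limma or by limma-voom and 16 had an unadjusted p under 0.05 towards Large White and 1 towards Meishan, while 43 of them were higher in Large White by the mean of the log2 values, with a median of 0.39, beside 54.3% and a median of 0.04 for all tested protein-coding genes. Of 52 nuclear-encoded subunits of the respiratory chain, likewise, none was called by either fit, 23 had an unadjusted p under 0.05 and 48 were higher, with a median of 0.52. With upper quartile scaling 41 of 45 and 47 of 52 were higher, and the median of all tested protein-coding genes moved to -0.03. Other families were tallied in the same way. Subunits of the proteasome, which degrades tagged proteins, held no selected gene, and 18 of 22 were higher, with a median of 0.40, none called and 6 with an unadjusted p under 0.05. Zinc finger proteins, likewise with no selected gene, were higher in 71 of 172, with a median of -0.07 (0.03 without Meishan replicate 3), none called, and 3 with an unadjusted p under 0.05 towards Large White and 15 towards Meishan. Cytoplasmic ribosomal proteins gave 30 of 35 higher with a median of 0.34, and RPS21, of the small subunit, was the one called, with 36.9, 23.2 and 40.97 RPKM in Meishan and 150.0, 121 and 117 RPKM in Large White.

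The enzyme group included the DUOX genes. DUOX1 and DUOX2 are membrane oxidases that release hydrogen peroxide, and DUOXA1 is the maturation factor that brings DUOX1 to the surface. DUOX1 had 1.15, 1.94 and 0.705 RPKM in the Meishan samples and 3.27, 3.45 and 4.17 RPKM in the Large White samples. DUOX2 had 2.76, 2.73 and 1.55 RPKM in Meishan and 4.20, 5.53 and 4.77 RPKM in Large White. DUOXA1 had 2.40, 1.93 and 2.53 RPKM in Meishan and 4.94, 5.05 and 5.24 RPKM in Large White. The levels were low in all samples, and the separation that the rule requires was 1.52-fold to 1.95-fold in the 3 genes. IYD, which recovers iodide from iodotyrosines, had 0.170, 0.244 and 0.0856 RPKM in the Meishan samples and 0.502, 0.625 and 0.653 RPKM in the Large White samples. CYP1A1 (ENSSSCG00000001906), a cytochrome P450 that oxidises aromatic compounds, had 0.0781, 0 and 0.238 RPKM in Meishan and 0.882, 0.543 and 1.05 RPKM in Large White. It was close to the minimum in Large White and lower still in Meishan.

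Receptors and ligands numbered 10, of which LEPR, the leptin receptor, was the one called, with 1.97, 1.86 and 0.551 RPKM in Meishan and 6.63, 8.98 and 7.25 RPKM in Large White. KIT (ENSSSCG00000008842), the receptor tyrosine kinase for stem cell factor, had 1.68, 1.99 and 7.77 RPKM in the Meishan samples and 16.6, 14.8 and 16.9 RPKM in the Large White samples. Meishan replicate 3 was well above the other two Meishan samples and still under the lowest Large White sample by 1.90-fold, so the log2 difference of 2.05 ± 0.42 (SE) had a wide error and was 2.59 without that replicate. KIT is expressed in germ cells, mast cells, melanocytes and other cells, and structural changes at KIT underlie white coat colour in pigs. The number of KIT copies was not measured here. KIT made up most of the summed level of the germ cell list in Large White. That sum was 5.61 to 13.04 RPKM in Meishan and 18.5 to 20.1 RPKM in Large White. The other 3 tested genes of the list, PRDM1, DND1 and TEX14, were lower in Large White by the mean of the log2 values, and none had an unadjusted p under 0.05. RET, the receptor of the GDNF family, NPY1R, a receptor of neuropeptide Y, LIFR, the receptor of leukemia inhibitory factor, and WNT16, a secreted Wnt ligand, were also among the receptors and ligands.

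Genes of leukocytes and immune signalling were 19, the role with the lowest median log2 difference (0.77), and 1 of them, S100A8, was called. TYROBP (ENSSSCG00000002919), the adaptor through which receptors of macrophages and natural killer cells signal, had 6.75, 11.9 and 5.40 RPKM in Meishan and 24.6, 28.1 and 19.03 RPKM in Large White. MRC1, the mannose receptor of tissue macrophages, had 5.73, 5.30 and 5.70 RPKM in Meishan and 10.25, 11.8 and 8.73 RPKM in Large White. CD4, a co-receptor of T cells that is also found on macrophages of several mammals, had 0.220, 0.162 and 0.0858 RPKM in the Meishan samples and 1.14, 1.65 and 1.86 RPKM in the Large White samples. In each of them the breeds were separated, as the rule requires. IL2RG, the common chain of several cytokine receptors, CD6 and CD79B, of T and B cells, and NRROS, of macrophages, were expressed at 1.95 RPKM or less in every sample. The marker list of leukocytes showed the same direction. All 7 tested genes of the list were higher in Large White by the mean of the log2 values (6 of 7 without Meishan replicate 3), with a median of 0.58 (0.33 without that sample), none was called by limma, and 3 had an unadjusted p under 0.05. TYROBP was in the list, and without it the median was 0.45. C1QA, a complement protein made by macrophages, had 57.2, 34.9 and 20.7 RPKM in Meishan and 82.8, 105 and 89.6 RPKM in Large White and a log2 difference of 1.38 ± 0.35 (SE; limma, adjusted p = 0.13). PTPRC, the CD45 antigen of all leukocytes, had 2.30, 1.88 and 1.79 RPKM in Meishan and 2.65, 2.78 and 2.59 RPKM in Large White, with a difference of 0.30 ± 0.16 (limma, adjusted p = 0.42). The list summed to 42.1 to 86.1 RPKM in Meishan and 134 to 165 RPKM in Large White. C1QA and TYROBP, the latter itself a selected gene, made up most of that sum in every sample. MPO, of neutrophils, was at 0 to 0.15 RPKM. The part of leukocyte number in the difference of the selected immune genes was not tested.

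Matrix and adhesion genes were 7, of which POSTN and ITGA11 were called. POSTN (ENSSSCG00000009361), periostin, a matrix protein of fibroblasts, had 5.17, 4.16 and 7.25 RPKM in the Meishan samples and 13.9, 16.4 and 13.5 RPKM in the Large White samples, a log2 difference of 1.28 ± 0.21 (SE). ITGA11, the collagen-binding integrin alpha 11, had 23.6, 14.5 and 22.3 RPKM in Meishan and 51.97, 60.6 and 63.4 RPKM in Large White. ELN (ENSSSCG00000025858), elastin, had 3.34, 3.21 and 4.11 RPKM in Meishan and 10.9, 6.22 and 13.5 RPKM in Large White. In none of the 7 genes was Meishan replicate 3 the lowest Meishan sample, and in 5 it was the highest. Of 13 tested stroma genes 7 were higher, with a median of 0.26, and POSTN was the one called. Without Meishan replicate 3, 10 of 13 were higher and the median was 0.51. Of 12 matrix genes 4 were higher, none was called and 3 had an unadjusted p under 0.05 towards Large White and 1 towards Meishan, with a median of -0.14. Without Meishan replicate 3 the direction turned, with 10 of 12 higher and a median of 0.19.

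The neuronal and secretory group had 9 genes, of which 6 were called. SCG5, a chaperone of prohormone convertase 2, had 5.76, 2.43 and 2.87 RPKM in the Meishan samples and 25.03, 27.04 and 21.4 RPKM in the Large White samples. NPTX1, a secreted pentraxin of synapses, had 3.91, 4.09 and 2.49 RPKM in Meishan and 13.9, 20.5 and 17.2 RPKM in Large White. REEP1, which shapes the endoplasmic reticulum, had 0.438, 0.567 and 0.560 RPKM in Meishan and 2.03, 2.13 and 2.44 RPKM in Large White. All 3 were separated by more than 3-fold between the nearest samples. The 5 listed genes of the neural marker list summed to at most 0.564 RPKM in any sample, and none of them passed the filter. Sugar metabolism had 6 genes, HK1, ALDOC, ENO2, FBP2, GBE1 and TKFC, with ALDOC, aldolase C, and GBE1, the glycogen branching enzyme, called. The list of hypoxia and glycolysis genes, which held none of them, had a median of 0.05 with 7 of 11 higher, none called and 1 with an unadjusted p under 0.05, towards Meishan. With upper quartile scaling that median was -0.04.

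Cholesterol synthesis was the pathway list that held a pair of the selected genes. MSMO1, which removes methyl groups from the sterol ring, had 95.7, 111 and 47.6 RPKM in the Meishan samples and 263, 313 and 234 RPKM in the Large White samples. CYP51A1 (ENSSSCG00000015311), which removes another methyl group from lanosterol at an earlier step, had 43.7, 44.8 and 20.03 RPKM in Meishan and 94.7, 106 and 83.00 RPKM in Large White. Both were separated between the breeds, as the rule requires, with log2 differences of 1.74 ± 0.35 and 1.44 ± 0.32 (SE). In both Meishan replicate 3 was lowest. The other enzymes were tested in the same fit. HMGCS1, which makes HMG-CoA, had 94.9, 126 and 34.7 RPKM in Meishan and 173, 215 and 175 RPKM in Large White. SQLE, the squalene epoxidase, had 34.96, 41.6 and 14.9 RPKM in the Meishan samples and 66.3, 72.8 and 56.2 RPKM in the Large White samples. In both genes, as in FDFT1, LSS, MVK and INSIG1, the breeds did not overlap either, although the nearest samples were less than 1.5-fold apart. In 14.3% of all tested protein-coding genes the lowest Large White sample was above the highest Meishan sample. Of the 15 tested genes of the list 14 were higher in Large White by the mean of the log2 values, none was called and 7 had an unadjusted p under 0.05, MSMO1 and CYP51A1 among them. The median was 0.69, also over the 13 genes that were not selected, beside 0.04 for all tested protein-coding genes. SREBF2, the transcription factor that drives the pathway, had 29.4, 24.2 and 18.1 RPKM in Meishan and 18.6, 20.6 and 19.2 RPKM in Large White, and its difference was -0.26 ± 0.20 (limma, adjusted p = 0.57). Meishan replicate 3 was the lowest sample in all 15 genes. Without that sample the median fell to 0.31, 10 of 15 genes were higher, and MSMO1 and CYP51A1 passed limma's threshold. Without Meishan replicate 2 the median was 1.14.

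**Figure D4:**
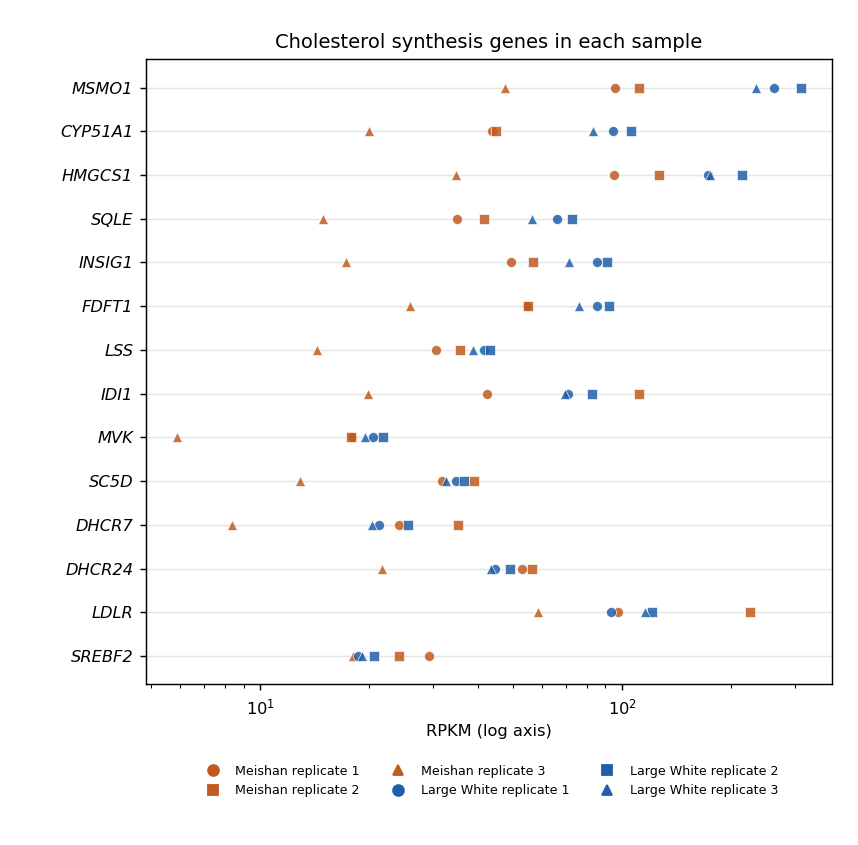
RPKM (log axis) of 14 of the 15 tested genes of the cholesterol synthesis list in each sample, ordered by the log2 difference between the breeds. MSMO1 and CYP51A1 head the list with the Large White samples (blue) clear of the Meishan samples (orange), and Meishan replicate 3 (orange triangle) lies lowest in every gene drawn.

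The neighbouring list of steroid synthesis held no selected gene. Of its 7 tested genes 4 were higher by the mean, none was called, 2 had an unadjusted p under 0.05, and the median was 0.54 (0.21 with no filter on low values). Without Meishan replicate 3, 5 of 7 were higher and the median was 0.44. CYP17A1 had the largest difference, 1.45 ± 1.12 (limma, adjusted p = 0.56). It had 1.28, 1.89 and 59.2 RPKM in Meishan and 19.1, 25.7 and 14.2 RPKM in Large White. INSL3, also highest in Meishan replicate 3, differed by -0.70 ± 1.64. CYP11A1 differed by 0.86 ± 0.59 (limma, adjusted p = 0.52). CYB5A, cytochrome b5, an electron donor in steroid and sterol synthesis, had 132, 118 and 71.1 RPKM in Meishan and 224, 240.1 and 173 RPKM in Large White and differed by 1.01 ± 0.31 (adjusted p = 0.19). SCARB1, the receptor that takes up cholesterol from high-density lipoprotein, had 1119, 908 and 252 RPKM in the Meishan samples and 356, 505 and 489 RPKM in the Large White samples and differed by -0.51 ± 0.60 (adjusted p = 0.71). The summed level of the list was 1215 to 2649 RPKM in Meishan and 2442 to 2681 RPKM in Large White, and Meishan replicate 3 was the sample at 1215 RPKM.

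Over all 24 marker and pathway lists, 146 genes were tested. POSTN, itself one of the selected genes, was alone in being called higher in Large White, by limma and by limma-voom on the recovered reads, and none was called lower by either (30 of 13375 tested protein-coding genes were, 0.224%), while 23 and 3 had an unadjusted p under 0.05 in limma's test. The call of POSTN was lost with a pseudocount of 0.1, with a minimum of 0.1 RPKM, with no filter, with upper quartile scaling, with the replicate number as a block and with any sample but Meishan replicate 3 left out. Genes of the gonad's somatic cells had a median of -0.57 with 1 of 9 higher, but INHA, INHBA and FSHR were high in Meishan replicate 3, and without it 4 of 8 were higher and the median was -0.02. Meiosis genes had a median of 0.04, oocyte genes 0.16, endothelial genes 0.04 and erythroid genes -0.02. With upper quartile scaling the meiosis and endothelial medians were both -0.02. Without Meishan replicate 3, 1 of 6 endothelial genes was higher, against 4 of 6 with it, and the median was -0.22. Interferon response genes were higher in 2 of 11, with a median of -0.21. The Y chromosome list had no gene listed.

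**Figure D5:**
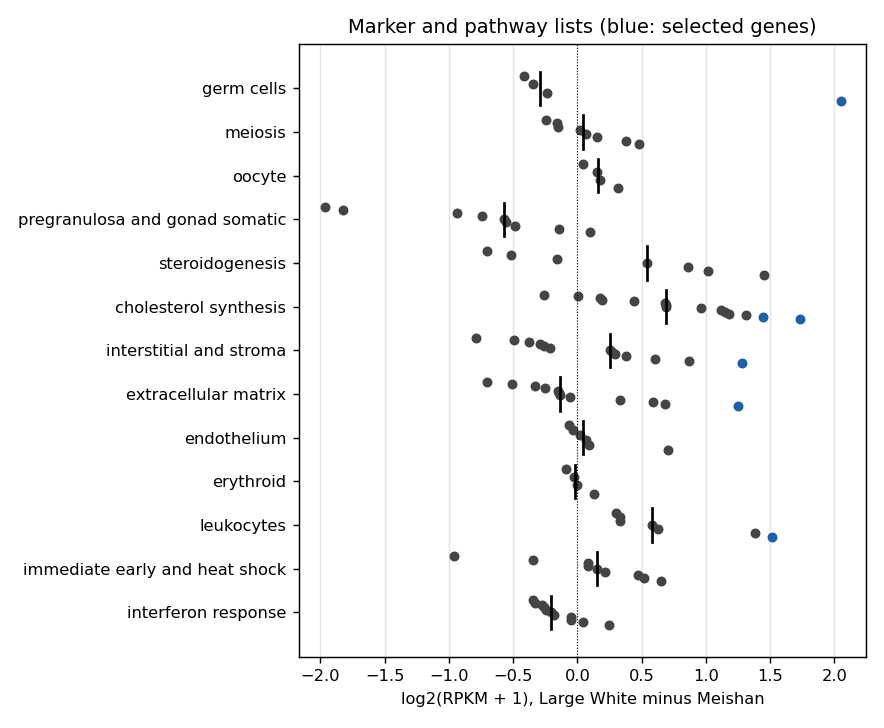
Difference in log2(RPKM + 1), Large White minus Meishan, for the tested genes of 13 of the 24 lists. Each point is a gene, blue where it is one of the 267 selected genes, and the black bar is the median. Cholesterol synthesis (median 0.69) and leukocytes (0.58) lie to the right and the gonad's somatic genes (-0.57) to the left, and without Meishan replicate 3 these medians are 0.31, 0.33 and -0.02.

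The order of genes was taken from NCBI RefSeq (assembly Sscrofa11.1, another assembly than that of the files), in which 150 of the genes were placed by symbol. In 13 of them another selected gene lay next to it or with 1 gene between. The longest run was SHF, DUOX1, DUOXA1 and DUOX2, with DUOXA2, the maturation factor of DUOX2, between DUOXA1 and DUOX2. DUOXA2 had 2.68, 2.43 and 1.74 RPKM in Meishan and 4.87, 6.58 and 3.69 RPKM in Large White, so its breeds did not overlap, with a gap below 1.5-fold. SHF (ENSSSCG00000004674), an adaptor with an SH2 domain, had 5.58, 5.55 and 3.78 RPKM in Meishan and 8.74, 10.5 and 11.05 RPKM in Large White. FBXL5 (ENSSSCG00000008740), an iron-sensing part of a ubiquitin ligase, BST1 and CD38 formed the second run, with FAM200B between FBXL5 and BST1. BST1 and CD38 are related ecto-enzymes that make cyclic ADP-ribose from NAD. BST1 had 0.568, 0.845 and 0.503 RPKM in the Meishan samples and 2.21, 1.89 and 2.12 RPKM in the Large White samples. CD38 had 0.219, 0.274 and 0.280 RPKM in Meishan and 0.611, 1.01 and 0.538 RPKM in Large White. FBXL5 had 16.5, 18.1 and 20.1 RPKM in Meishan and 39.4, 33.8 and 31.8 RPKM in Large White. FBXL5 was well expressed in all samples, while the ecto-enzymes were low in both breeds. Pairs were formed by FOXRED2 (ENSSSCG00000000142), a flavoprotein of the endoplasmic reticulum, with TXN2, by CARMIL3 (ENSSSCG00000002012), a regulator of actin capping, with DHRS4, and by RPS4X with CITED1 (ENSSSCG00000012409), a transcriptional coactivator. CITED1 had 44.9, 42.3 and 16.5 RPKM in the Meishan samples and 108, 115 and 98.5 RPKM in the Large White samples. FOXRED2 had 2.30, 1.40 and 1.47 RPKM in Meishan and 4.86, 6.54 and 6.12 RPKM in Large White. CARMIL3 had 0.991, 1.33 and 0.982 RPKM in Meishan and 2.97, 3.16 and 3.18 RPKM in Large White. CARMIL3 was thus expressed far below its neighbour DHRS4 in Large White. Whether genes that lie side by side shared reads was not tested.

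Long non-coding RNAs (lncRNAs) that the readable part of the study's lncRNA annotation places beside a selected gene numbered 12, at 9 genes, and 4 were listed at 0 in all samples. In 4 of the 12 the breeds did not overlap, higher in Large White each time, as in 1.87% of all 10813 listed lncRNAs and 7.6% of the 1514 tested lncRNAs. The lncRNA antisense to IL33, an alarmin cytokine, had 4.21, 2.99 and 5.98 RPKM in the Meishan samples and 11.9, 13.7 and 12.7 RPKM in the Large White samples, and IL33 itself had 3.70, 2.42 and 4.46 RPKM in Meishan and 8.45, 9.61 and 9.26 RPKM in Large White. The lncRNA antisense to SRGN, the core protein of a secretory-granule proteoglycan, had 14.01, 15.1 and 7.94 RPKM in Meishan and 34.8, 24.6 and 18.3 RPKM in Large White, and SRGN had 6.76, 5.69 and 4.34 RPKM in the Meishan samples and 16.5, 10.98 and 10.9 RPKM in the Large White samples. PRSS12, a serine protease of neurons, had 3.40, 2.74 and 2.93 RPKM in Meishan and 8.45, 8.67 and 7.11 RPKM in Large White and its antisense lncRNA 3.07, 2.78 and 2.64 RPKM in Meishan and 5.91, 5.94 and 5.48 RPKM in Large White. At STARD6 a lncRNA in the nearby region had 1.78, 0.541 and 0.892 RPKM in the Meishan samples and 6.03, 6.12 and 6.52 RPKM in the Large White samples. By contrast, the lncRNAs antisense to GMPR and SPTBN5 differed by -0.13 ± 0.17 and 0.15 ± 0.30 on the log2 scale. The study's counting used strand.

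At the edge of the rule lay genes that differ little from those left out. ENO2, the neuronal enolase, and MRPS27 were the selected genes nearest to the limit, with 2.90 and 16.7 RPKM in the lowest Large White sample and 1.93 and 11.1 RPKM in the highest Meishan sample. Just outside were OCIAD2, a mitochondrial and endosomal membrane protein, with 12.5 against 8.35 RPKM, EDNRB, the endothelin receptor type B, with 12.1 against 8.09 RPKM, and ENSSSCG00000023913, with 5.49 against 3.66 RPKM. Of the 267 genes, 12 had fewer than 20 reads in a Large White sample, with a lowest of 4, and the median over genes of the lowest Large White read number was 336.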

How the data were processed

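Total RNA of 6 ovary samples (3 Meishan, 3 Large White, grouped by the labels, 49 days post coitus) was depleted of ribosomal RNA and sequenced as strand-specific paired-end libraries. The authors mapped the reads with TopHat (TopHat2 2.1.0 in the submitters' processing notes), counted them per feature with htseq-count, by strand and with a mapping quality minimum, and deposited RPKM values, 1 per feature and sample, counted on read pairs. How multi-mapping reads and duplicates were treated is not given in the sources used here.

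From these values, each sample's depth was recovered with the lengths of lncRNAs, whose values gave whole reads, to within 0.001 of a read, in 100% of cases, and reads per gene follow from it. The length recovered from the values alone equalled the annotated length in 92.1% of lncRNAs with a value. Where the reads of a gene share a factor, its recovered length is an underestimate. Gene symbols came from a table of identifiers and from the study's lncRNA annotation, and 11817 protein-coding genes had one, as did 161 of the 267 selected genes. The breeds were compared with a trended limma fit of log2(RPKM + 1) (limma 3.58.1, R 4.3.3) on features that reached 0.5 RPKM in 3 or more samples, with Benjamini-Hochberg adjustment over all tested features. Genes with an adjusted p under 0.05 and a difference of at least 1 were called. The procedure was tested on simulated data. Standard errors are those of the moderated fit. Other steps used Python 3.11.15 with pandas 2.3.3 and matplotlib 3.10.9.

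The selected genes, the lists of markers and pathways and the roles were chosen with earlier results of these data known. Named genes are the 12 with a symbol and the widest gap, the 8 most abundant with a symbol, those in a list, those beside another selected gene, those nearest to the limit and the defining genes of the lists, as well as SULT1C3 and 1 gene without a symbol. Genes given as examples of a role or beside a lncRNA were chosen after their values were seen. Alternatives were other minimum values and ratios, a pseudocount of 0.1, other filters, upper quartile scaling, the replicate number as a block, limma-voom on the recovered reads, and each sample left out. No sequence is printed, and coordinates were not used. A few genes that the rule would name are not reported here.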

Additional observations from a re-analysis of the deposited data

How the results depend on the processing

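The number of selected genes was 267, and 227 to 337 with a minimum RPKM of 1 or 0.1. A ratio of at least 1.2 gave 706 and a ratio of at least 2 gave 116. With upper quartile scaling it was 230, of which 223 were shared. Without 1 sample it was 345 to 537, the highest without Meishan replicate 1.

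Limma called 69 of the 267 genes. The number called was 67 with upper quartile scaling (57 of them among the 69), 53 with limma-voom (43 among the 69) and 46 with a minimum of 0.1 RPKM (45 among the 69). It was 35 with a pseudocount of 0.1, all among the 69, and 5 with no filter, 4 of them among the 69. Without 1 sample it was 2 to 100: it was 100 without Meishan replicate 3 (67 among the 69), 26 and 14 without Meishan replicates 1 and 2, and 2 or 3 without a Large White sample, where 213 of the genes passed the filter. The cause was not tested, and 205 to 262 genes had an unadjusted p under 0.05 in these fits. In the lists the count of genes called higher was 1 (POSTN), and it was 0 with a pseudocount of 0.1, a minimum of 0.1 RPKM, no filter and upper quartile scaling, where 20 to 23 genes had an unadjusted p under 0.05. Without 1 sample it was 0 to 6, the 6 without Meishan replicate 3 being POSTN, KIT, TYROBP, MSMO1, CYP51A1 and CYP17A1. No list gene was called lower in any of the fits (0 in each).

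The replicate numbers did not pair the samples (correlations of the deviations of -0.04, 0.12 and 0.15). With the replicate number as a block 18 genes were called, and 0 list genes were called higher. The log2 difference of the 39 named genes kept its direction in all 440 other fits. The rule placed every Large White value of these genes above every Meishan value, so the direction could hardly turn. Nothing is read from it. The difference stayed within 1 SD in 192 of 233 fits with another setting and in 207 of 207 with a sample left out. The 41 that moved did so with the smaller pseudocount or limma-voom. Depth limits the genes below 1 RPKM, and the standard errors cover the spread between these samples.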
